A study of Mus musculus with 58 samples.

Results

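Ribosome biogenesis genes encode the proteins that make ribosomes: RNA polymerase I, the small nucleolar RNA-protein particles that modify ribosomal RNA, and the assembly factors of both ribosomal subunits. They were examined as a set of 38 genes, chosen by known role as a list of 38 symbols, out of 24028 genes in the deposited tables. All 38 were found in the tables and all 38 passed the filter on low counts, with at least 448 exonic counts in any library. Of the 38, 2 encode RNA polymerase I subunits, 3 belong to box C/D particles, 4 to box H/ACA particles, 13 to the small subunit pathway, 12 to the large subunit pathway, and 4 are abundant nucleolar proteins. No measured value is part of the rule.

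The RNA came from mouse CD4+ T cells of 3 genotypes in 5 states, 58 libraries in 15 groups. KO cells (labelled T1792 delta/delta) carry a CD4cre transgene and floxed alleles of the miR-17~92 microRNA cluster, so that Cre deletes the cluster in T cells. TG cells (T1792 tg/tg) carry CD4cre and a Rosa26 allele in which Cre removes a stop cassette, after which the CAG promoter drives a miR-17~92 transgene. WT cells are labelled wt, and no Cre is named for them, so Cre and the altered cluster cannot be told apart in either comparison with WT. For naive cells, lymph nodes and spleens of 10 mice, male and female, were pooled. The cells were used as they were, or cultured with IL-2 (50 U/ml) on plates carrying anti-CD3 and 0.2 µg/ml anti-CD28, for 24 h or 48 h. Anti-CD3 at 0.25 µg/ml is called the very weak stimulus, and at 0.5 µg/ml the weak stimulus. Ages were not given. Groups held 4 libraries, and KO naive and WT naive cells 3 (numbers 1, 2 and 4). The sources used here do not say whether libraries of a group came from separate pools of mice, so p-values measure the spread between these libraries, which may be technical.

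Making ribosomes starts in the nucleolus, where RNA polymerase I transcribes a long precursor RNA. Particles guided by small nucleolar RNAs methylate it or convert its uridines to pseudouridine, and a large early complex, the small subunit processome, folds and cuts it. Separate factors then build the large subunit and carry both subunits to the cytoplasm. Resting T cells hold few ribosomes, and T cell activation is known to switch on these genes, many of which are targets of the transcription factor MYC. miR-17~92 encodes several mature microRNAs that repress transcripts through sites matching their seed, bases 2 to 8.

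The mature microRNAs are shown because genotype changes their dose. Their sequences, from RefSeq (GRCm38.p6, chromosome 14, plus strand), fall into 4 seed families, with the seed in capitals. miR-17-5p and miR-20a-5p share a seed, as do miR-19a-3p and miR-19b-3p.
mmu-miR-17-5p: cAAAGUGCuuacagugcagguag
mmu-miR-20a-5p: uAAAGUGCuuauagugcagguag
mmu-miR-18a-5p: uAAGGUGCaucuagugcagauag
mmu-miR-19a-3p: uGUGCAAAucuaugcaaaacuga
mmu-miR-19b-3p: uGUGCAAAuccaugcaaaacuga
mmu-miR-92a-3p: uAUUGCACuugucccggccug

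A 7-base match to any of these seeds was rare in the set. Of the 38 genes, 4 (10.5%) held at least 1 match in the 3′ UTR of the GENCODE transcript used, against 30.1% of the tested genes with a 3′ UTR. The 3′ UTRs of the set were also shorter, with a median of 497.5 bases against 973 bases. Tsr1 and Ncl held a match for miR-17-5p and miR-20a-5p, Bysl and Polr1a for miR-18a-5p, and Ncl for miR-92a-3p, and no gene of the set held a match for the miR-19 seed. The matches are printed with 11 bases on either side, in the sense of the transcript, with the match in capitals. A match is a description of sequence and not a shown site of repression.
Tsr1, miR-17-5p and miR-20a-5p: aagaccttgaaGCACTTTaataaaagttg
Ncl, miR-17-5p and miR-20a-5p: ctgctttttggGCACTTTcttgggtgcta
Ncl, miR-92a-3p: caaacagtacaGTGCAATctgaaatgacc
Bysl, miR-18a-5p: ctgcctaggcgGCACCTTtctaacccttc
Polr1a, miR-18a-5p: aagctgcctgtGCACCTTtcagagttcct

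The promoters were searched for the letters CACGTG, the E-box that MYC and MAX bind, which reads the same on both strands. A RefSeq window from 250 bases before to 50 bases after the start (300 bases) was at hand for 33 of the 38 genes. CACGTG occurred in 8 of these 33 (24.2%): Mybbp1a, Wdr43, Utp20, Nop2, Tsr1, Utp4, Pes1 and Utp18. The share was 8.09% of all genes with a window, 11.5% of the tested genes with a window, and 19.6% (18 of 92) of another list of ribosome biogenesis genes. Median GC content was 59.7% in the windows of the set and 60.3% in those of the tested genes. The 4 promoters printed are those with the highest level in stimulated WT cells among genes whose match lies no more than 30 bases after the start, with the E-box in capitals, on the plus strand of GRCm38.p6. The Wdr43 stretch is chr17:71616132-71616237, the Nop2 stretch chr6:125131723-125131887, the Tsr1 stretch chr11:74898004-74898109 and the Utp4 stretch chr8:106893555-106893660.
Wdr43: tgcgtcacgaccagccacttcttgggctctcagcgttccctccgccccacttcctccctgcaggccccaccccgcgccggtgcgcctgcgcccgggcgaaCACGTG
Nop2: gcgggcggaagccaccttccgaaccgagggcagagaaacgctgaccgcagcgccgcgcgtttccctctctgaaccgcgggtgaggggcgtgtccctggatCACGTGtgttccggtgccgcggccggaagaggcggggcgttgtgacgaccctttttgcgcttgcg
Tsr1: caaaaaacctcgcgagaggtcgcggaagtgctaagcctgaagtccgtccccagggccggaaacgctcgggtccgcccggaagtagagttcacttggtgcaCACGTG
Utp4: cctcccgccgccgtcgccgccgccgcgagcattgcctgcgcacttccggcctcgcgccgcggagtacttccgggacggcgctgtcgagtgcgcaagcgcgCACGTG

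Another feature that the choice did not use was small nucleolar RNA genes within the genes. In GENCODE, 7 of the 38 (18.4%) host them, against 1.90% of the tested genes: Nop56 with 5, Nop58 with 4, Gnl3, Ncl and Wdr43 with 3 each, Tsr1 with 2 and Dkc1 with 1. The mature small nucleolar RNAs are not expected in poly(A) libraries, and their levels are not reported here.

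Exonic depth was even, at 19.2 to 20.8 M counts per library. Intronic depth followed the state, at 5.83 to 9.11 M counts in naive libraries and 2.74 to 4.39 M in stimulated ones. The cluster's own hairpin genes checked the labels. Mir17 had 2 counts over the 16 stimulated KO libraries, 57 over the 16 stimulated WT libraries and 140 over the 16 stimulated TG libraries. In naive cells it had 3 counts over 3 KO libraries, 10 over 3 WT libraries and 542 over 4 TG libraries. Markers of T cells (8 genes such as Cd3e and Lck) summed to 5417 to 6138 CPM (counts scaled to library size) in WT naive libraries and to 3261 to 4056 CPM in WT stimulated ones. Markers of other cell types were present at low levels and were higher in naive libraries: in WT, 10 B cell markers summed to 264 to 501 CPM naive and 24.0 to 85.7 CPM stimulated, 10 myeloid markers to 132 to 300.3 and 3.75 to 7.50 CPM, and 4 erythroid markers to 169 to 521 and 0.305 to 10.5 CPM. The 6 NK cell markers summed to 63.1 to 108 CPM and 7.65 to 34.9 CPM, and the 2 CD8 markers to 35.2 to 52.7 CPM and 9.45 to 24.3 CPM. No marker was at 0 in all libraries of a group. The part of these other cells in the results below was not tested.

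Levels within the set spanned a wide range. Per kilobase of exon, in WT cells after 24 h of the weak stimulus, the nucleolar proteins Npm1 (1514 CPM per kb) and Ncl (658 CPM per kb) stood highest. Mybbp1a (341), Nop58 (333), Ddx21 (284), Nhp2 (282), Nop56 (247) and Nolc1 (239.5) followed in CPM per kb. The lowest were Polr1a (35.7), Noc3l (34.9), Rrp8 (34.2) and Utp18 (34.2 CPM per kb), whose levels lay close together. Npm1 and Ncl together made up 27.7% to 30.6% of the summed CPM of the set in naive groups and 38.2% to 41.9% in stimulated groups.

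The whole set rose on activation and was at its height at 24 h. In WT cells the 38 genes summed to 4603 ± 228 CPM (SD, n = 3) naive, or 0.46% of exonic counts. They summed to 19671 ± 1930 CPM after 24 h of the very weak stimulus and 21111 ± 1007 CPM after 24 h of the weak stimulus (SD, n = 4 each). At 48 h the sums were 14022 ± 1540 CPM and 14164 ± 1595 CPM. Without Ncl and Npm1 the sum went from 3327 ± 128 CPM naive to 12920 ± 856 CPM after 24 h of the weak stimulus, so the rise does not rest on these 2 genes. Each of the 38 genes had its lowest group mean in naive cells, in each genotype. The highest group mean was that of the weak stimulus at 24 h for 38 genes in KO, 37 in WT and 37 in TG. CPM is a share of each library, so fewer cells of a type and less RNA per cell cannot be told apart, and a change in total RNA per cell does not show.

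**Figure D1:**
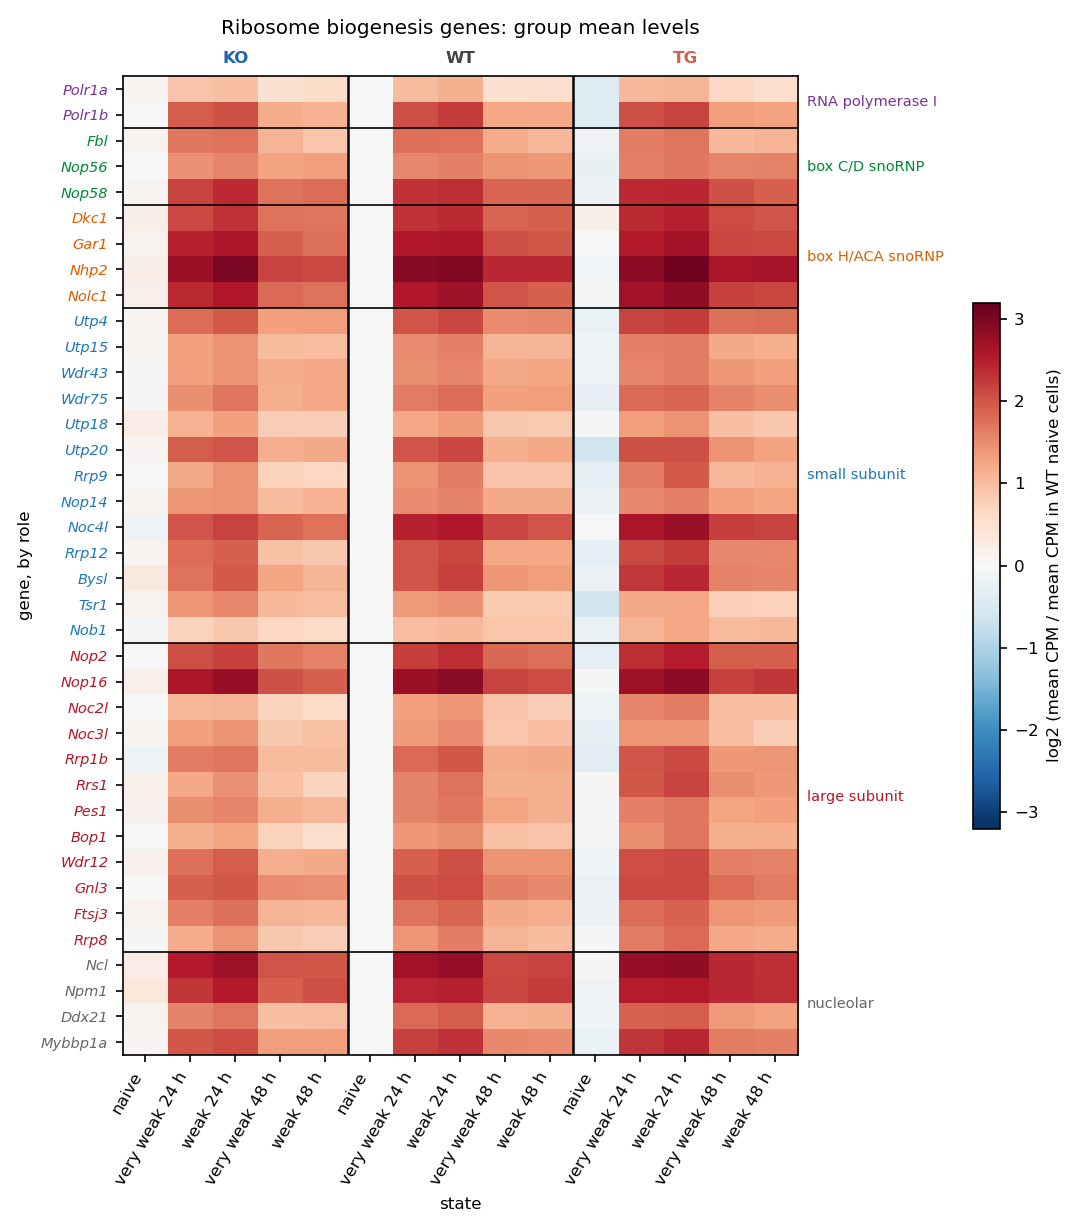
Group mean level of each of the 38 genes (rows, coloured by role) in the 15 genotype-state groups (columns), as log2 of mean CPM over mean CPM in WT naive cells; n = 3 or 4 libraries per group. The naive columns are lowest for all 38 genes in each genotype, and the columns of the weak stimulus at 24 h hold the highest mean of 37 or 38 genes.

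Against WT naive cells, all 38 genes were called higher in each of the 4 stimulated states of WT cells (edgeR quasi-likelihood test, adjusted p under 0.05). Of all 13709 genes tested, 36.1% were called higher after 24 h of the very weak stimulus, 36.8% after 24 h of the weak stimulus, and 38.7% and 39.4% at 48 h. The median log2 change of the set was 1.81 and 1.96 at 24 h and 1.24 and 1.245 at 48 h, against -0.08, -0.09, -0.00 and 0.02 over all genes. The number called and at least 2-fold higher was 37 and 38 at 24 h and 30 and 30 at 48 h, against 21.8%, 22.5%, 23.6% and 24.4% of all genes.

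The roles rose to different extents after 24 h of the weak stimulus, the state used for the values that follow. The median log2 change was 2.65 for the box H/ACA genes, 2.39 for the nucleolar proteins, 1.80 for the large subunit genes, 1.74 for the box C/D genes, 1.69 for the RNA polymerase I subunits and 1.65 for the small subunit genes. Differences between roles were not tested.

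Among the polymerase subunits, Polr1b rose more than the largest subunit, Polr1a. Polr1b was at 50.4, 51.3 and 63.7 CPM in WT naive libraries and at 283, 283, 238 and 237 CPM in WT libraries after 24 h of the weak stimulus (log2 change 2.24). Polr1a was at 146, 137 and 154 CPM naive and 338, 334, 298 and 304 CPM stimulated (log2 change 1.13, adjusted p = 5.14e-12). Neither gene's groups overlapped.

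In the particles that modify ribosomal RNA, the H/ACA genes rose most. Nhp2, a core protein of these particles, had the largest change of the set at 2.96, from 32.8 to 40.8 CPM in naive libraries to a mean of 283 ± 20.5 CPM. Nolc1, a chaperone of both particle types, went from 137, 127 and 135 CPM to 990, 893, 822 and 806 CPM (log2 change 2.72, adjusted p = 4.57e-22). Gar1 and the pseudouridine synthase Dkc1 rose by 2.58 and 2.39. Of the C/D genes, the scaffold protein Nop58 rose by 2.36, the methyltransferase Fbl by 1.74 and Nop56 by 1.61.

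Of the small subunit genes, Noc4l, a processome protein that pairs with Nop14, had the smallest adjusted p of the set. It stood at 43.5, 41.1 and 50.4 CPM in WT naive libraries and at 288, 262, 254.7 and 249 CPM after 24 h of the weak stimulus (log2 change 2.55, SE 0.094, adjusted p = 1.19e-28). Bysl, which acts on late precursors of the small subunit, rose by 2.19, and Rrp12, which acts in the export of precursors, by 2.15. Of the processome proteins, Utp4 and Utp20 rose by 2.15 and 2.14, and Wdr75, Rrp9, Utp15, Nop14, Wdr43 and Utp18 by 1.35 to 1.79. The smallest change of the set was that of Nob1, the endonuclease that makes the end of the small subunit RNA, at 1.05. Tsr1, a late cytoplasmic factor, rose by 1.47.

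Of the large subunit genes, Nop16 rose by 2.88 (adjusted p = 8.63e-22), the methyltransferase Nop2 by 2.37 (adjusted p = 1.32e-23) and Rrp1b by 1.99 (adjusted p = 3.87e-22). Gnl3 (nucleostemin) rose by 2.08 and Wdr12 by 2.04. The other members of the complex that Wdr12 forms, Pes1 and Bop1, rose by 1.68 and 1.49. The 2 methyltransferases Ftsj3 and Rrp8 rose by 1.87 and 1.64, Rrs1 by 1.74, and the partners Noc3l and Noc2l by 1.51 and 1.41. Of the nucleolar proteins, Ncl rose by 2.80, Npm1 by 2.48, Mybbp1a by 2.31 (adjusted p = 4.06e-24) and the RNA helicase Ddx21 by 1.93.

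Other lists were read beside the set in this comparison. Of 108 further ribosome biogenesis genes, 98 were called higher and 3 lower, with a median log2 change of 1.23 (Lyar 2.95, Pno1 2.696, Nol10 2.40, Tbl3 2.20, Nop9 2.004, Wdr36 1.83). The 79 cytosolic ribosomal protein genes did not follow on exonic counts: 7 were called higher (Rps2 1.01) and 34 lower (Rps27 -1.79, Rpl17 -0.98). Their median was -0.23. Of all 13709 genes, 5042 were called higher and 5573 lower. In the Myc network, 4 of 11 genes were called higher, Myc itself by 1.11, and 7 lower, among them the antagonist Mxd4 (-3.95). Of 15 brakes on mTORC1, the kinase complex that promotes growth, 4 were called higher (Sesn2 2.67) and 7 lower (Pdcd4 -2.54, Sesn1 -2.21).

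Intronic counts, which come from unspliced RNA, rose for most of the set relative to all intronic counts, but not with the scaling of the exonic tables. After 24 h of the weak stimulus, 31 of the 37 genes with introns were called higher in WT cells on intronic counts and none lower (29.8% of 12366 genes called higher), with a median log2 change of 1.27. The largest intronic changes were those of Polr1b (2.23), Utp20 (2.16), Bysl (2.10) and Rrp1b (2.06). Polr1b introns went from 43.1 ± 8.83 intronic CPM (SD, n = 3) to 201 ± 32.4 (SD, n = 4). Not called were Rrp8, Nob1, Utp15, Fbl, Rrp9 and Bop1. Of the 79 cytosolic ribosomal protein genes, 54 were called higher on intronic counts and 3 lower, with a median of 0.90. Scaled with the factors of the exonic tables in place of their own, 8 genes of the set were called higher, among them Utp20 (0.92) and Bysl (0.88), and 8 lower, among them Bop1 (-1.22) and Rrp9 (-1.01). That scaling moved the median intronic change of all genes from -0.04 to -1.28, with 1022 genes called higher and 8661 lower, against 3690 and 3811. The median of the set was then 0.06. Intronic reads were a larger share of all reads in naive libraries (24.5% to 30.7% in WT) than after 24 h of the weak stimulus (15.4% to 18.4% in WT), and the part of this in the intronic changes was not tested beyond that scaling.

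With each table on its own scaling, the exonic change was larger than the intronic change for 25 of the 37 genes and smaller for none, by a test of the region by group interaction (20.3% of 11350 genes called higher). The median difference was 0.69 on the log2 scale, against -0.08 over all genes. With the exonic factors for both tables all 37 genes were called, but so were 66% of all 11350 genes, 63.9% of them all being called higher. The median over all genes was then 1.19. Nolc1 had the largest gap, 1.91 (SE 0.22, adjusted p = 6.87e-12): its introns went from 22.4 ± 2.26 to 39.0 ± 7.38 intronic CPM while its exonic level rose as given above. By adjusted p it was followed by Rrp9 (1.41), Utp15 (1.28), Wdr75 (1.18), Rrp12 (1.37) and Fbl (1.41). At the other end, the estimates for Polr1a (-0.13), Polr1b (-0.01), Rrp1b (-0.09), Nop56 (-0.08), Utp20 (-0.04) and Bysl (0.06) lay near 0, and those were not called. All 4 H/ACA genes and all 4 nucleolar proteins were called, against neither polymerase subunit.

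**Figure D2:**
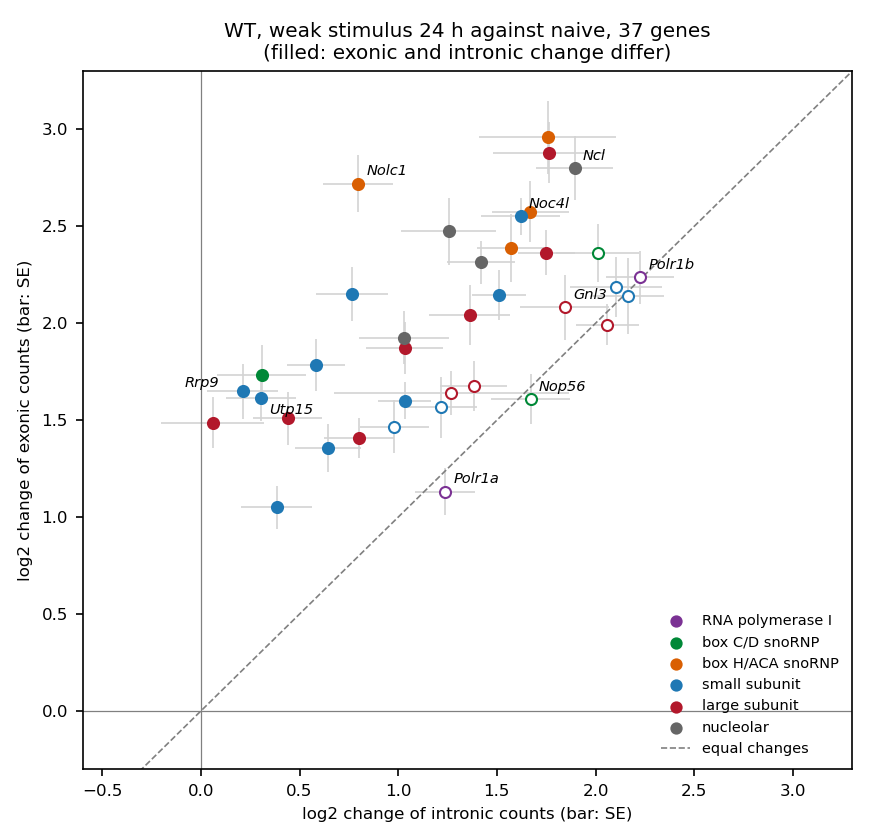
Change of exonic counts (vertical) against change of intronic counts (horizontal) for 37 genes, both as log2 of the weak stimulus at 24 h over naive in WT cells, with SE bars and colours by role, each table on its own scaling (with the exonic scaling for both, all points move left). Filled points, 25 of 37, differ between the regions; Nolc1 lies farthest above the line of equal changes and Polr1a and Polr1b lie on it.

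Between 24 h and 48 h the set fell. In WT cells 34 of 38 genes were called lower at 48 h under the very weak stimulus (16% of all genes called lower, median -0.47) and 34 under the weak stimulus (19.4%, median -0.60). Not called under either stimulus were Npm1, Wdr43, Nob1 and Nop56. Polr1b had the largest drop of those named by adjusted p under the weak stimulus, -0.99 (SE 0.12, adjusted p = 6.48e-09), from the values above to 119, 121, 155 and 129 CPM. Mybbp1a (-0.81, adjusted p = 4.78e-09), Rrp1b (-0.79), Rrp12 (-0.91), Noc4l (-0.53) and Nolc1 (-0.81) followed. Under the very weak stimulus the smallest adjusted p were those of Polr1b (-0.83, adjusted p = 3.48e-07), Mybbp1a (-0.65), Rrp1b (-0.62), Rrp12 (-0.79), Ddx21 (-0.69) and Utp20 (-0.84). Without WT replicate 1 the count under the very weak stimulus was 18. Of the markers, 2 of 4 erythroid genes were called lower at 48 h under either stimulus (list medians -2.73 and -2.24). Under the very weak stimulus 1 of 6 NK cell markers was called lower, and of the 8 T cell markers 1 was called higher and 2 lower. Under the weak stimulus 1 T cell marker was called lower. No B cell, CD8 or myeloid marker was called, and the part of the markers in the result was not tested. Of the further biogenesis genes, 60 of 108 were called lower and 2 higher under the very weak stimulus, and 74 lower under the weak one (Nol6 -1.29, Rbm19 -1.27). No ribosomal protein gene was called lower under the weak stimulus and 3 were called higher (Rpl39 0.52).

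Differences of the set between the stimulus strengths were small in WT cells, and calls at 24 h depended on the use of replicate numbers. No gene of the set, and none of all genes (0%), was called between the weak and the very weak stimulus at 24 h or at 48 h by edgeR. At 24 h the estimate was above 0 for 37 of 38 genes, with a median of 0.12 and 1 gene at an unadjusted p under 0.05. At 48 h the median was -0.00, with 19 estimates above 0. With only these 2 groups in the fit and the replicate number as a block, 3 genes of the set were called at 24 h (3.78% of all genes). DESeq2 called none at either time.

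Once stimulated, KO cells had estimates below WT for 37 of 38 genes, and how many were called depended on the use of replicate numbers. For this comparison the counts of the 4 stimulated states were summed within each genotype and replicate number, which gives 4 sums per genotype. Over these sums 7 of 38 genes were called lower in KO than in WT and none higher: Noc4l, Rrs1, Rrp12, Bysl, Bop1, Rrp8 and Mybbp1a. Of all genes, 2.34% were called lower. The median log2 change of the set was -0.14, against 0.00 over all genes, and 37 of 38 estimates were below 0 (Tsr1 was above, at 0.11). In the set 18 genes had an unadjusted p under 0.05. The share of all genes at that p is not given here or below. With the replicate number as a block, 22 genes were called lower and none higher, the 7 among them (9.21% of all genes called lower). Of the markers in the same comparison, 1 of 10 myeloid genes was called higher, with the list at 4.46 to 10.5 CPM in KO and 3.75 to 7.50 CPM in WT stimulated libraries. No other marker was called, though all 4 erythroid estimates were below 0 (median -0.82), with that list at 0.202 to 5.24 CPM in KO and 0.305 to 10.5 CPM in WT. Their part in the result was not tested.

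In stimulated TG cells few of the genes were called higher, and the number again depended on the use of replicate numbers. Over the sums 4 of 38 were called higher in TG than in WT and none lower: Rrs1, Bysl, Rrp8 and Noc4l. Of all genes, 6.21% were called higher, so this count alone is not read as a trait of the set. The median was 0.11 and 13 genes had an unadjusted p under 0.05, which without the share of all genes is not read as a trait of the set either. With the block, 17 were called higher (14.3% of all genes) and 1 lower, Tsr1 (14.4%). In the same comparison 2 of 8 T cell markers were called lower, with the list at 2762 to 3501 CPM in TG and 3261 to 4056 CPM in WT stimulated libraries, and their part in the result was not tested. The comparisons with WT share the WT libraries, so their values are given side by side and no overlap is read from them.

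Rrs1, needed to build the early large subunit, had the largest change among those called in TG (chr1:9545408-9547455, GRCm38.p6, gene ID 59014, a single exon with no intron). Its sums were 67.8, 73.4, 75.4 and 68.9 CPM in KO, 91.4, 86.8, 86.4 and 90.3 CPM in WT, and 115, 115, 114 and 110 CPM in TG. The 3 genotypes did not overlap. The log2 change was -0.31 (SE 0.047, adjusted p = 0.00323) in KO and 0.36 (SE 0.047, adjusted p = 8.01e-04) in TG.

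Noc4l (chr5:110648419-110653382, gene ID 100608) had the largest change in KO. Its sums were 184, 174, 174 and 165 CPM in KO, 230, 223, 219 and 217 CPM in WT and 248, 256, 243 and 245 CPM in TG, again without overlap. The log2 change was -0.35 (SE 0.044, adjusted p = 0.00111) in KO and 0.16 (adjusted p = 0.0365) in TG.

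Bysl (chr17:47599331-47611492, gene ID 53414) stood at 110, 109, 107 and 99.5 CPM in KO, 134, 119, 119 and 125 CPM in WT and 152, 146, 141 and 140 CPM in TG. It changed by -0.22 (adjusted p = 0.0285) in KO and 0.22 (adjusted p = 0.0169) in TG, with no overlap between genotypes. Rrp8 changed by -0.21 (adjusted p = 0.0332) and 0.19 (adjusted p = 0.0349). Rrp12 (-0.26, adjusted p = 0.0233) and Bop1 (-0.26, adjusted p = 0.0295) were called in KO. In TG they had estimates of 0.17 (adjusted p = 0.0810) and 0.18 (adjusted p = 0.0655).

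Among the nucleolar proteins, Mybbp1a (chr11:72441327-72451770, gene ID 18432) was called lower in KO, by -0.20 (adjusted p = 0.0436). Its sums were 1063, 947, 978 and 946 CPM in KO, 1187, 1118, 1124 and 1081 CPM in WT and 1225, 1241, 1199 and 1180 CPM in TG. All KO sums lay below the WT sums, and the TG sums overlapped those of WT. The most abundant genes, Npm1 and Ncl, had estimates of -0.11 and -0.12 in KO and 0.12 and 0.13 in TG, none called, and Ddx21 -0.20 and 0.11.

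The remaining genes shown sample by sample overlapped with WT in both comparisons. Polr1b (chr2:129100970-129128060, gene ID 20017) stood at 178, 166, 168 and 169.8 CPM in KO, 196, 193, 187 and 177 CPM in WT and 193, 186, 185 and 192 CPM in TG. Polr1a (chr6:71909053-71979435, gene ID 20019) stood at 276, 237, 218 and 248 CPM in KO, 276, 256, 251 and 252 CPM in WT and 263, 253, 261 and 271 CPM in TG. Neither polymerase subunit was called in either comparison.

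Nolc1 (chr19:46075847-46085543, gene ID 70769) stood at 645, 559.5, 639 and 552 CPM in KO, 729.5, 639, 693 and 636 CPM in WT and 769, 729, 794 and 712 CPM in TG. Nop56 (chr2:130274367-130279313, gene ID 67134) stood at 487, 387, 429.7 and 394.5 CPM in KO, 496, 424, 441 and 434 CPM in WT and 525, 479.8, 468 and 463 CPM in TG. None of the 7 genes of the modifying particles was called: their estimates ran from -0.17 (Nolc1) to -0.07 in KO and from -0.06 (Fbl) to 0.16 (Nolc1) in TG.

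**Figure D3:**
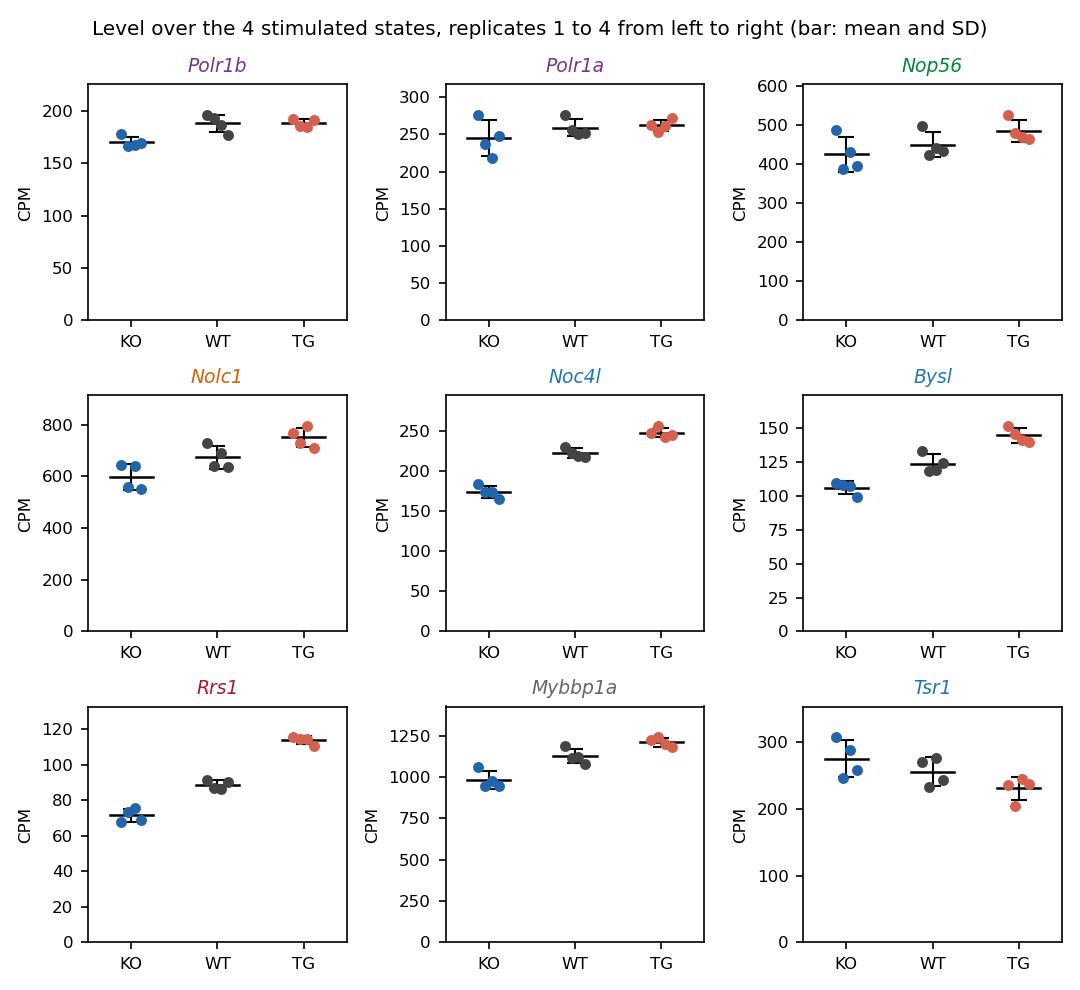
Level of genes shown sample by sample, in CPM over the summed stimulated states, for KO, WT and TG, with points for replicates 1 to 4 and the bar for mean and SD; axes start at 0. Rrs1, Noc4l and Bysl step up from KO to WT to TG without overlap, while Polr1a and Nop56 overlap in all 3 genotypes and Tsr1 runs the other way.

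By role, the 7 genes called in KO were 3 of 13 small subunit genes, 3 of 12 large subunit genes and 1 of 4 nucleolar proteins, and the 4 called in TG were 2 small subunit and 2 large subunit genes. The KO sums lay wholly below the WT sums for 9 genes (5.54% of all genes), and the TG sums wholly above the WT sums for 6 (10.9%).

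The counts depend on single sums. The KO count of 7 was 2 without WT replicate 1, KO replicate 2 or KO replicate 4, 3 without WT replicate 3, and 4 without WT replicate 2 or WT replicate 4. The TG count of 4 was 1 without WT replicate 3 or TG replicate 1, and 2 without WT replicate 2, WT replicate 4, TG replicate 2 or TG replicate 3. Within replicates 1 and 2 alone it was 0 in KO and 1 in TG, and within replicates 3 and 4 alone 0 in both.

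**Figure D4:**
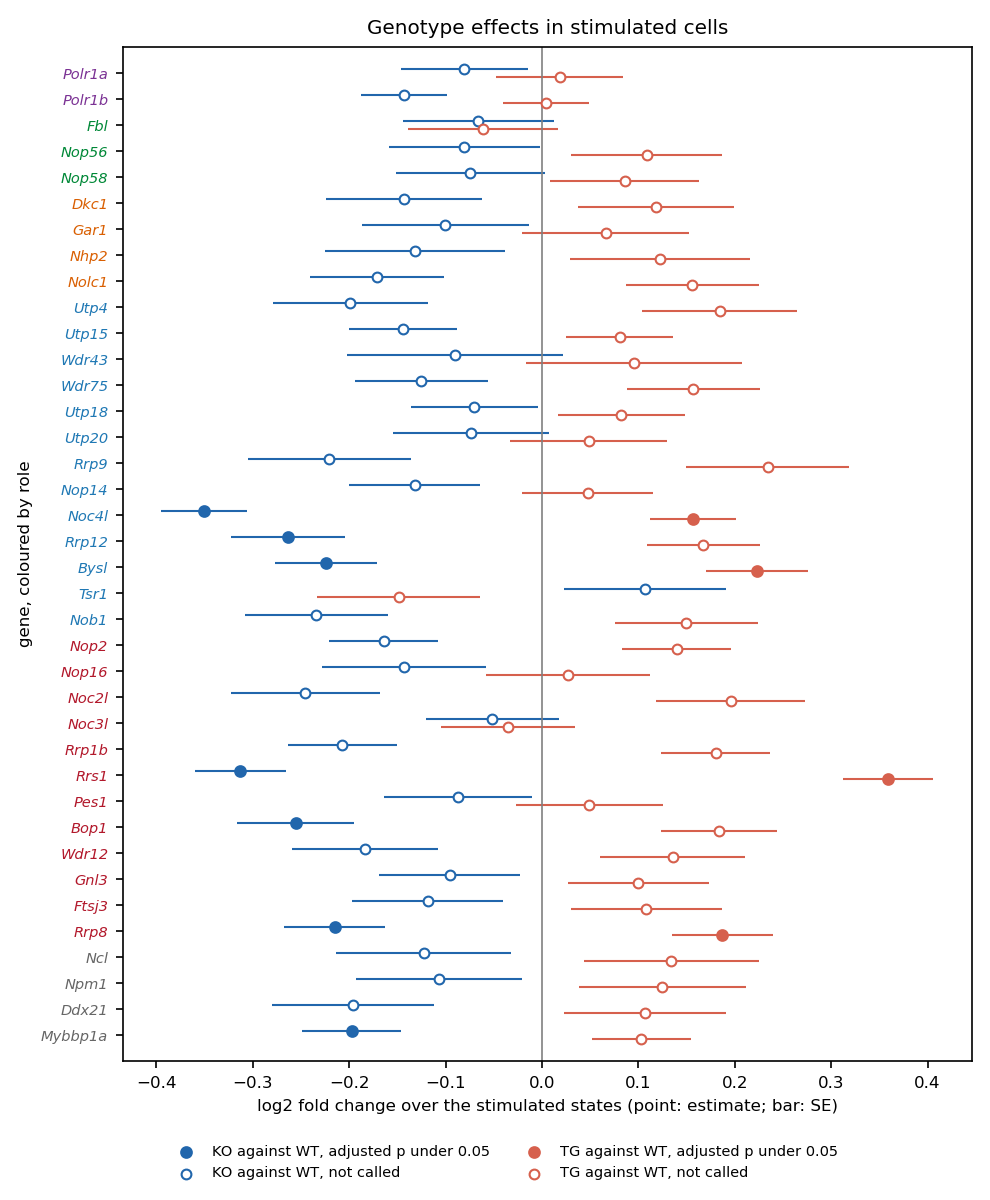
Estimates (points) and SE (bars) of the log2 change over the stimulated states for the 38 genes, KO against WT and TG against WT, filled where the adjusted p was under 0.05 (7 in KO, 4 in TG). The KO points lie below 0 for 37 genes and most TG points lie above 0; Tsr1 is the only gene with a KO point above 0.

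The direct comparison of TG with KO over the sums gave 26 genes called higher in TG (20.9% of all genes called higher) and 1 lower, Tsr1 (22.5% called lower), with a median of 0.26. The smallest adjusted p belonged to Rrs1 (0.67, adjusted p = 1.29e-06), Noc4l (0.51, 5.65e-06), Bysl (0.45, 4.63e-05), Rrp8 (0.40, 9.42e-05), Rrp12 (0.43, 1.33e-04) and Bop1 (0.44, 1.43e-04). By role these were 9 of 12 large subunit genes, 9 of 13 small subunit genes, all 4 nucleolar proteins, 3 of 4 H/ACA genes (not Gar1), Polr1b of the 2 polymerase subunits, and 0 of 3 C/D genes. Fbl (0.00) and Noc3l (0.02) had the smallest estimates. Markers of T cells moved too: 7 of 8 were called lower in TG than in KO and 1 higher, and their sum ran from 2762 to 3501 CPM in TG and 3291 to 4845 CPM in KO stimulated libraries. The NK marker list ran from 2.44 to 37.9 CPM in KO and 14.6 to 37.6 CPM in TG, with 1 of 6 called higher, and the myeloid list from 4.46 to 10.5 and 2.44 to 6.79 CPM, with 1 of 10 called lower. Of the B cell list, at 20.2 to 92.0 and 27.0 to 109 CPM, 1 of 10 was called higher. The part of these in the results was not tested.

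Tsr1 behaved differently from the rest, and its sample values are given because of that, outside the rule used for the other genes. Over the sums it stood at 307, 246, 289 and 258 CPM in KO, 270.3, 232, 276.5 and 242.5 CPM in WT and 236, 205, 244.5 and 236 CPM in TG. TG sums lay below all KO sums (log2 change -0.26, adjusted p = 0.0272), and both overlapped WT. Its position is chr11:74898080-74909340 (gene ID 104662), and 32.3% of its GENCODE exon bases overlap Srr, which lies on the opposite strand. Whether the counting used strand is not stated, so reads of the 2 genes may not be fully separated. Srr was far lower, at 11.3 CPM in WT naive cells and 3.33 CPM after 24 h of the weak stimulus. Over the sums its estimate was -0.38 in TG against KO (adjusted p = 0.00622). Against WT it was 0.11 in KO and -0.27 in TG, neither called. In TG naive cells against WT, where Tsr1 was called lower, the Srr estimate had the opposite sign, at 0.38 (adjusted p = 0.243). The part of Srr reads in the Tsr1 values was not tested. As shown above, Tsr1 holds a miR-17-5p seed match in its 3′ UTR and a CACGTG in its promoter window. That E-box starts at base 25, with the annotated start counted as the first base.

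Taken state by state, Noc4l was the only gene of the set called in KO, in each of the 4 stimulated states. The log2 change was -0.45 (adjusted p = 5.06e-04) and -0.38 (adjusted p = 0.00446) at 24 h under the very weak and weak stimulus, and -0.26 (adjusted p = 0.0424) and -0.29 (adjusted p = 0.0231) at 48 h. Under the very weak stimulus at 24 h the libraries stood at 215, 182, 173 and 152 CPM in KO and 269, 232, 243 and 240.5 CPM in WT, without overlap. Of all genes, 0.452%, 0.627%, 1.58% and 1.99% were called lower in these 4 states. No left-out replicate ended the call under the very weak stimulus at 24 h. Under the weak stimulus at 24 h it was lost without WT replicate 1 (-0.33). At 48 h it was lost under the very weak stimulus without WT replicate 2 or 4, KO replicate 1 or 2, or the low-count filter (-0.28 to -0.23), and under the weak stimulus without WT replicate 2 or 3 or KO replicate 1 or 2 (-0.28 to -0.25). With the block, 2 genes were called after 24 h of the weak stimulus (3.18% of all genes) and 5 after 48 h of it (8.7%). In TG no gene of the set was called in any stimulated state by edgeR, where 3.73% and 4.81% of all genes were at 24 h and 13.3% and 9.96% at 48 h. The number at an unadjusted p under 0.05 was 5, 4, 8 and 4, and DESeq2 called 1 gene, after 24 h of the weak stimulus. With the block, the TG count was 1 (very weak stimulus, 24 h, 6.7% of all genes), 2 (weak, 24 h, 8.48%) and 2 (very weak, 48 h, 18.8%). The genotype effects did not change detectably between 24 h and 48 h: no gene of the set was called for that difference in KO or TG by edgeR or DESeq2 or at an unadjusted p under 0.05, against 0.781% and 1.85% of all genes by edgeR.

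Naive cells gave a different picture for the transgene. In KO naive cells no gene of the set was called against WT (0.0365% of all genes), DESeq2 called none, none had an unadjusted p under 0.05, and the median was 0.09. In TG naive cells 5 of 38 were called lower than in WT and none higher (3.5% of all genes called lower): Tsr1 (-0.61, SE 0.13, adjusted p = 0.00155), Polr1a (-0.41, adjusted p = 0.0181), Rrp1b (-0.36, adjusted p = 0.0207), Polr1b (-0.41, adjusted p = 0.0378) and Utp20 (-0.58, adjusted p = 0.0388). The median of the set was -0.18. Tsr1 stood at 114, 111 and 118 CPM in WT naive libraries, 129, 119.7 and 123 CPM in KO naive libraries and 70.2, 69.9, 96.3 and 62.6 CPM in TG naive libraries. Polr1a stood at 146, 137 and 154 CPM in WT and 96.1, 109, 106 and 125 CPM in TG naive libraries, and Polr1b at 50.4, 51.3 and 63.7 CPM and 37.98, 39.6, 49.2 and 39.3 CPM. For these 3 genes, all called lower in this same comparison, the TG libraries lay below the WT libraries. The share of all genes without overlap in naive cells is not given, so the separation adds nothing to the calls. The count of 5 was 1 or 2 without WT replicate 1, 2 or 4 or without TG replicate 1, 2 or 4. Tsr1 kept its call in each alternative run that set no minimum change. Erythroid markers summed to 90.2 to 358 CPM in TG naive and 169 to 521 CPM in WT naive libraries, and 1 of 6 NK markers was called lower in TG naive cells. Their part in the result was not tested.

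Whether the TG effect changed with stimulation was tested as an interaction. For 9 of 38 genes the TG effect over the stimulated states was higher than in naive cells, and it was lower for none (2.01% of all genes called higher, 47% of all calls). Without TMM scaling the count was 8, and 32.2% of calls over all genes were higher. The 9 genes were Rrp1b (difference 0.55, SE 0.098, adjusted p = 0.00262), Utp20 (0.64, adjusted p = 0.00274), Nop2 (0.43, adjusted p = 0.00972), Rrp9 (0.51, adjusted p = 0.0168), Polr1a (0.44, adjusted p = 0.0251), Rrp12 (0.48, adjusted p = 0.0253), Wdr75 (0.44), Utp4 (0.42) and Polr1b (0.42). The median difference was 0.29 and 23 genes had an unadjusted p under 0.05. The 9 were both polymerase subunits, 5 of 13 small subunit genes and 2 of 12 large subunit genes. Utp20 stood at 93.3, 89.7 and 98.1 CPM in WT naive and 58.02, 62.7, 62.4 and 67.0 CPM in TG naive libraries. Over the stimulated sums it stood at 317, 282, 321 and 299.8 CPM in WT and 304, 278, 324 and 357 CPM in TG, where the genotypes overlapped. Rrp1b stood at 67.6, 70.4 and 72.3 CPM and 52.4, 51.8, 61.8 and 53.0 CPM in naive cells, and at 228, 211, 210.0 and 198 CPM and 249.7, 244, 231 and 235 CPM over the sums, where all TG sums lay above the WT sums. The count of 9 was 2 without WT replicate 4 or TG replicate 1, 4 without TG replicate 2 and 5 without WT replicate 1 or 2. For KO no gene was called for this difference by edgeR (0.0146% of all genes). The median was -0.26, 18 genes had an unadjusted p under 0.05, and DESeq2 called 1 (0.481% of all genes). This shift was not particular to the set. For the KO difference, 78 of the 79 ribosomal protein genes (median -0.27) and 103 of the 108 further biogenesis genes (median -0.22) had estimates below 0.

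**Figure D5:**
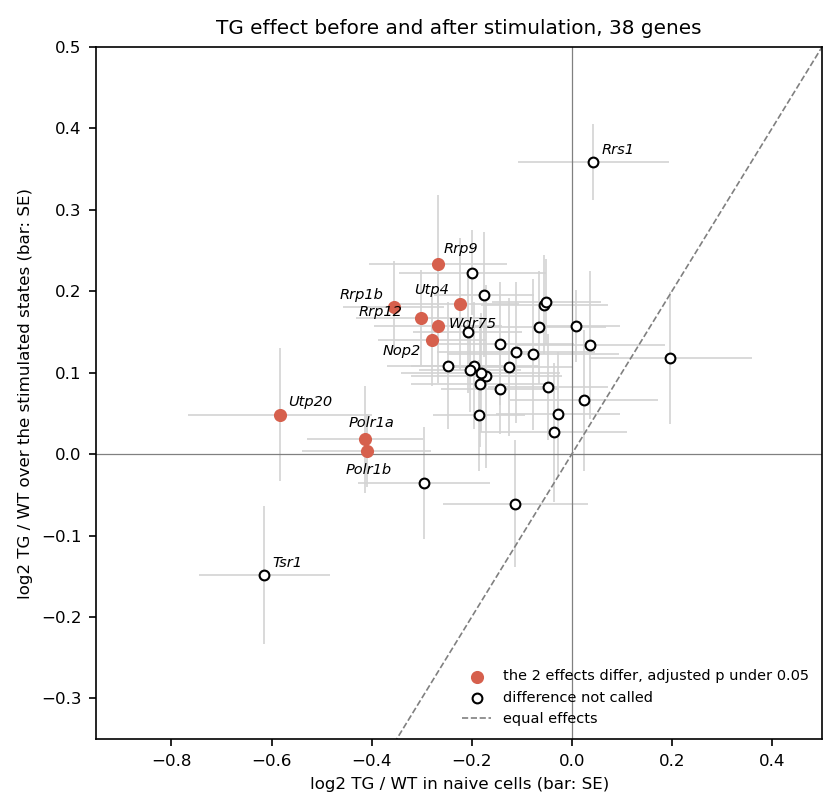
TG effect (log2 TG over WT) in naive cells (horizontal) and over the stimulated states (vertical) for the 38 genes, with SE bars; filled points mark the 9 genes whose effects differ at an adjusted p under 0.05, and the dashed line marks equal effects. The 9 lie left of 0 and above the line, with Utp20 at -0.58 naive and 0.05 stimulated.

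On intronic counts no gene of the set was called over the sums by edgeR in KO (0.113% of all genes, median -0.15, 6 genes at an unadjusted p under 0.05) or in TG (2.12%, median 0.13, 11 genes at an unadjusted p under 0.05). Intronic estimates were above 0 for 33 of 37 genes in TG and below 0 for 34 in KO. The smallest TG p were those of Nolc1 (0.33, adjusted p = 0.101) and Nop2 (0.26, adjusted p = 0.160), and the smallest KO p that of Rrp12 (-0.36, adjusted p = 0.338). With the block 2 genes were called in KO (2.35% of all genes) and 10 in TG (9.08%). No gene was called for a difference between the exonic and the intronic genotype effect in KO (0.106% of all genes, 2 genes of the set at an unadjusted p under 0.05) or TG (0.0705%, 1 gene). Tsr1 had estimates of 0.29 and -0.24 for this difference. The intronic shift was not particular to the set. Of the 79 cytosolic ribosomal protein genes, 76 intronic estimates were below 0 in KO (median -0.15) and 74 above 0 in TG (median 0.17). None of the 79 was called.

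The further lists gave these values over the sums. Of the 108 other ribosome biogenesis genes, 9 were called lower in KO (median -0.12), among them Senp3 (-0.26), Bud23 (-0.39) and Gnl3l (-0.25). In TG, 9 were called higher (median 0.09), among them Gnl3l (0.30), Bud23 (0.32) and Naf1 (0.21). In TG against KO, 59 were called higher and 2 lower. In TG naive cells 6 were called lower (Mdn1 -0.72, Pdcd11 -0.53, Nvl -0.50), and for 13 the TG effect was higher after stimulation than in naive cells (Mdn1 0.74, Nvl 0.59). Of the 79 ribosomal protein genes, none was called in KO and 3 were called lower in TG (Rps3a1 -0.27, Rps20 -0.27, Rpl17 -0.26). In TG against KO 13 were called lower and 1 higher.

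Myc, whose product drives many of these genes, was read as the regulator named in the background. Its level in WT was 160 ± 6.28 CPM naive (SD, n = 3) and 345 ± 35.1 CPM after 24 h of the weak stimulus (SD, n = 4). In the latter state it was 244 ± 42.95 CPM in KO and 451 ± 67.4 CPM in TG, and at 48 h of the weak stimulus 390 ± 111 CPM in KO, 404 ± 36.8 CPM in WT and 383 ± 19.95 CPM in TG (SD, n = 4 each). Over the sums Myc was not called in KO (-0.27, adjusted p = 0.288) or TG (0.09, adjusted p = 0.710). In TG naive cells it was called lower (-0.54, adjusted p = 0.0495), at 110 ± 7.75 CPM (SD, n = 4), and its TG effect was higher after stimulation (difference 0.65, adjusted p = 0.0288). The antagonist Mxd3 was called higher in KO (0.82, adjusted p = 0.0369) and lower in TG (-0.69), and Max was called lower in TG (-0.24). Of the 15 mTORC1 brakes, 1 was called higher in KO (Fnip1, 0.36) and none lower. In TG 2 were called lower, among them Fnip1 (-0.51), and 1 higher (Sesn3, 0.30).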

How the data were processed

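Per the labels' protocols, stranded TruSeq libraries of poly(A) RNA were read from a single end over 76 bases. The authors deposited an exonic and an intronic table of whole-number counts per gene, which by their values are not normalized. According to the submitters' processing notes, the tools included STAR 2.5.2a, FastQC 0.11.5, edgeR 3.24.3 and R 3.5, with the build mm10. Which program counted the reads, and whether it used strand, is not stated there or in the labels. Intronic counts exceeded exonic counts in 14.1% of values, so the exonic table does not hold the intronic reads. Of 24028 gene IDs, 23968 were named from RefSeq and 7 from GENCODE.

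The test was edgeR's (version 4.0.16, with limma 3.58.1 in R 4.3.3) quasi-likelihood F test after filterByExpr, with TMM scaling (factors 0.939 to 1.06) and Benjamini-Hochberg adjustment over all 13709 genes kept (12366 intronic, 11350 in both). State and activation contrasts came from 1 fit of all 58 libraries (43 residual degrees of freedom). Genotype contrasts in stimulated cells used 12 sums over the 4 stimulated states (9 residual degrees of freedom), and interactions added the naive libraries. SE is the log2 change over the square root of F. DESeq2 1.42.0 was an alternative. Counts at an unadjusted p under 0.05 are given for the set without the share of all genes, and are not read as traits of the set. CPM values use TMM factors, and read intervals cover counting error only, since reads carry no molecular identifiers.

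Replicate numbers paired the stimulated genotypes: the correlation of deviations from group means between same-numbered libraries was above 0.1 in every pair, 0.13 to 0.63 in single states and 0.25 to 0.65 over the sums. Libraries of unequal number correlated too in places, up to 0.53 between KO and WT in a single state, naive included. KO sum 4 correlated with WT sum 3 at 0.47 and with WT sum 4 at 0.35. Between genotypes the median correlation for unequal numbers was -0.13 to -0.09. The pairing comes from these data, as the labels do not say what a number shares.

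The set, the other lists and the tests were chosen with earlier results of these data known. All 38 genes are named by role. Values sample by sample are given for the gene of each role with the smallest p over the sums in KO and in TG, and statistics for at most 6 genes per comparison by adjusted p. Sample values of Tsr1, Utp20, Rrp1b and Nhp2 were added after their values were seen. Alternatives were leaving out each replicate, the replicate block, pairs of replicates, DESeq2, no filter, a 2-fold minimum and other scalings.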

Additional observations from a re-analysis of the deposited data

Results flagged for a closer look

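The summed level of the 38 genes was checked for single libraries that stand apart, together with the sums of the 8 genes shown sample by sample, in 37 groups of 4. In 3 groups the gap of the extreme library to its neighbour, over the range of the group, exceeded Dixon's critical value of 0.829, which chance alone passes in about 1 in 20 groups. TG naive replicate 4 was the highest of its group at 4438.2 CPM, with the others at 4050, 4086.4 and 4114.9 CPM. TG replicate 1 after 24 h of the weak stimulus was the highest at 22846 CPM, with the others at 21662, 21677 and 21824 CPM. KO replicate 2 after 48 h of the weak stimulus was the lowest at 11007 CPM, with the others at 13184, 13263 and 13485 CPM.

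The TG effect differed between naive and stimulated cells for 9 genes by the interaction test of edgeR. The differences on the log2 scale were 0.547 for Rrp1b, 0.643 for Utp20, 0.43 for Nop2, 0.514 for Rrp9, 0.444 for Polr1a, 0.48 for Rrp12, 0.435 for Wdr75, 0.421 for Utp4 and 0.424 for Polr1b.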

How the results depend on the processing

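The alternatives were set beside 31 counts of called genes of the set. Of 205 alternatives other than leaving out a single replicate, with runs on pairs of replicates among them, 159 gave a count within 1.5 times the one reported. Of 422 alternative values for 29 single-gene results, none reversed, 276 kept their call and 146 lost it, which includes settings with fewer samples. A 2-fold minimum was set for the counts only and was not among these single-gene settings. Tsr1 in TG naive cells and the interactions of Rrp1b and Utp20 kept their call in every single-gene setting, with changes under 2-fold.

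A minimum change of 2-fold gave 0 genes for KO in each stimulated state, TG naive, both 48 h to 24 h comparisons, the 3 comparisons over the sums and the TG interaction, and 11 for exonic minus intronic change. Replicates 1 and 2 alone gave 0 for KO at 24 h under either stimulus, 3 for KO under the weak stimulus at 48 h, 1 for TG in each of weak 24 h and very weak 48 h, and over the sums 0 (KO), 1 (TG) and 11 (TG against KO). Replicates 3 and 4 alone gave 0 for KO at 48 h under either stimulus and 0 over the sums for KO and TG. Shares of all genes in these runs on pairs of replicates are not given here. Without the low-count filter the KO count under the very weak stimulus at 48 h was 0 and that of TG over the sums 2. DESeq2 gave 2 (KO weak 24 h), 3 (KO weak 48 h), 1 (TG weak 24 h), 11 (KO sums), 8 (TG sums) and 1 (KO interaction), where it called 2.3%, 6.18%, 6.09%, 10.3%, 18.5% and 0.481% of all genes. The mean over library coefficients gave 18 in KO and 14 in TG, where 24.4% and 33.8% of all genes were called, against 5.66% and 13.2% over the sums. Exonic library factors gave 16 on intronic counts in WT, 8 of them lower.

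The replicate block gave 2 (KO weak 24 h), 5 (KO weak 48 h), 1, 2 and 2 (TG very weak 24 h, weak 24 h, very weak 48 h), 22 (KO sums), 18 (TG sums) and, on intronic counts, 2 (KO) and 10 (TG). In the fit of only 2 groups it gave 3 for the weak against the very weak stimulus at 24 h. Naive libraries and WT libraries 24 h apart were not paired by their numbers, since not all pairs of equal number had a correlation above 0.1. For the TG interaction the block gave 14, and as the share of all genes called in that fit is not given, the larger count is not read as a trait of the set. Elsewhere the count with the block was within 1.5 times the count without it.

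Leaving out 1 replicate gave 38 to 38 genes for activation, 0 to 0 for KO naive, 1 to 1 for KO very weak 24 h, 0 to 2 for KO weak 24 h, 0 to 1 for KO very weak 48 h and 0 to 4 for KO weak 48 h. It gave 1 to 4 for TG naive, 0 to 3 for TG weak 24 h and very weak 48 h, and 0 to 0 for the other TG states, the weak against the very weak stimulus and the genotype effects at 48 h minus 24 h. It gave 18 to 34 (very weak) and 32 to 35 (weak) for 48 h against 24 h in WT, 2 to 10 for KO sums, 1 to 5 for TG sums, 20 to 31 for TG against KO, 0 to 1 for the KO and 2 to 8 for the TG interaction. It gave 30 to 32 for intronic activation, 18 to 24 for exonic minus intronic change in WT, and 0 for all intronic genotype comparisons. The cause of these changes was not tested. Depth was not varied as a setting. Exonic counts of the set were at least 448 in any library, while intronic counts were far fewer for some genes, 387 for Rrp8 over all 58 libraries.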
